A study of Homo sapiens and Mus musculus with 33 samples.

Results

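Acetylation of lysine 18 of histone H3 (H3K18ac) was measured by ChIP-seq, the sequencing of immunoprecipitated chromatin, in HCT116 cells treated with MS275 or with the solvent DMSO. The 6 H3K18ac libraries, 3 for each treatment, were chosen by their labels from the 33 libraries of the series. They were compared over 1 list of 40266 peaks, shared by all HCT116 libraries, of which 40122 passed a filter of at least 10 scaled reads in at least 3 of the 6 libraries. HCT116 is a human colorectal carcinoma cell line, and the cells received 5 µM MS275, an inhibitor of class I histone deacetylases, or DMSO for 18 h. The study dealt with class I deacetylases as enzymes that also remove crotonyl groups from histones, and it also measured H3K18 crotonylation (H3K18cr), 1 input library for each treatment and RNA (4 libraries for each treatment) in these cells. All groups came from 1 cell line, and the chromatin of both treatments was sonicated in a buffer that held sodium butyrate, itself a deacetylase inhibitor. The RNA libraries are described as biological replicates. For the ChIP-seq libraries, which the study treated as pairs in its own test at gene starts, the methods speak of biological and technical repeats where they describe the ChIP with qPCR, and which of these the replicate numbers stand for is not given in the sources used here. Their p-values therefore rest on the spread between these libraries, pooled over peaks in the tests of single peaks, and this spread may be technical.

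Lysine acetylation is added to histones by acetyltransferases such as p300 and CBP and removed by deacetylases, of which HDAC1, HDAC2 and HDAC3 are the class I members that work in corepressor complexes. H3K18ac is found at active promoters and enhancers, where bromodomain proteins can bind acetylated lysines. Inhibitors of class I enzymes raise bulk histone acetylation, whereas a ChIP-seq library scaled to its own number of reads shows how the mark is spread over the genome and not its total amount.

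The libraries had 2236551 to 5122616 H3K18ac reads in peaks. A scaled read is a read multiplied by the factor with which the authors brought each library to the size of the largest one, and levels are given in scaled reads. Peaks were 300 to 132750 bp wide, with a median of 1950 bp. The 4 lists of cell type markers matched the labelled cells: the 10 epithelial markers summed to 3958 to 5646 CPM (counts scaled to library size) in the DMSO RNA libraries and 4910 to 6197 with MS275, and 9 of them had an H3K18ac peak at the gene start. The 6 fibroblast markers summed to 5.76 to 8.62 CPM with DMSO and 10.4 to 17.5 with MS275, and LUM was at 0 in all libraries. The 5 blood markers reached at most 0.217 CPM with CD14 at 0, and the 4 endothelial markers at most 1.44. The share of these cells in the differences below was not tested.

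H3K18ac was lower with MS275 at the peaks of gene starts that carried most of the mark. With the deposited scaling it differed little at weak peaks away from gene starts. Of the peaks tested, 6534 fell (16.3%) and 106 rose (0.264%) at an adjusted p under 0.05 in limma with Benjamini-Hochberg adjustment. Of the peaks within 1 kb of a gene start, 5202 of 12059 fell (43.1%) and 7 rose (0.058%), whereas 1332 of the 28063 other peaks fell (4.75%) and 99 rose (0.353%). This split depended on the scaling of the libraries. With TMM scaling, which assumes that most peaks do not change, 6613 peaks fell (16.5%) and 1811 rose (4.51%), and with each library scaled to its reads in peaks 4215 fell and 6933 rose, so 98.4%, 78.5% and 37.8% of the calls were lower. The median change over all peaks was -0.19 on the log2 scale as deposited, 0.06 with TMM and 0.26 as a share of reads. At gene starts it was -0.60 as deposited and -0.35 with TMM, where 5283 start peaks fell (43.8%) and 227 rose (1.88%). The rest of the 6613 falls and 1811 rises with TMM lay at other peaks.

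The calls also depended on which libraries were used. The median level over all peaks was 58.9, 64.9 and 77.2 scaled reads in DMSO replicates 1 to 3, and 67.5, 56.1 and 54.5 in MS275 replicates 1 to 3. MS275 replicate 1 thus lay among the DMSO libraries, and the median change over all peaks was not larger than the spread between replicates (-0.17 between group means of library medians, exact permutation test, two-sided, p = 0.3, where 0.1 is the smallest p that 3 libraries against 3 allow). Without MS275 replicate 2 the number of calls was 1432, without MS275 replicate 3 it was 1893, without DMSO replicate 2 it was 3062 and without DMSO replicate 3 it was 3769. With the replicate number as a block it was 814, and with TMM scaling and the block 7547. The comparisons within each library that follow do not depend on the scaling of the library. The levels, median changes and input-subtracted changes given with them do.

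The excess of H3K18ac at gene starts over other peaks was smaller in every MS275 library than in any DMSO library. The median level of start peaks was 130.2, 153.8 and 204.7 scaled reads in the DMSO libraries and 124.6, 95.7 and 95.4 with MS275. All 3 MS275 libraries lay below all 3 DMSO libraries at the starts. The median of the other peaks was 40.8, 43.7 and 50.2 scaled reads with DMSO and 48.0, 42.9 and 40.9 with MS275, so with the deposited scaling the groups overlapped there. With TMM scaling 1811 of all peaks rose, and 227 of these lay at starts. Within libraries, start peaks stood above other peaks by 1.84 ± 0.18 on the log2 scale in DMSO and by 1.25 ± 0.11 with MS275 (mean ± SD, n = 3), a difference of -0.59 without overlap between groups (two-sided p = 0.1 in an exact permutation test over libraries, its lowest possible value). The start peaks held 49.1%, 51.0% and 52.9% of the scaled reads in peaks in the DMSO libraries. They held 45.1%, 42.8% and 43.7% with MS275, 7.10 percentage points less on average (p = 0.1, exact permutation test).

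Peaks just outside 1 kb of a start had changes close to those of distant peaks. The median change was -0.60 within 1 kb, -0.11 from 1 to 5 kb, -0.09 from 5 to 20 kb, -0.06 from 20 to 100 kb and -0.03 beyond 100 kb (log2). Relative to the start peaks of the same library, the 4 more distant classes were higher with MS275 by 0.56, 0.55, 0.61 and 0.65, each without overlap between groups (p = 0.1 for each, exact permutation test). The change in the input library between treatments had a median of -0.07 at starts and -0.04 at other peaks. After subtraction of the input, the mean H3K18ac signal per kb at starts was 33.1, 43.8 and 64.0 scaled reads in DMSO and 30.6, 19.6 and 19.5 with MS275, a log2 change of -1.02, against -0.47 at other peaks. Whether the libraries differed in the efficiency of immunoprecipitation was not tested.

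**Figure D1:**
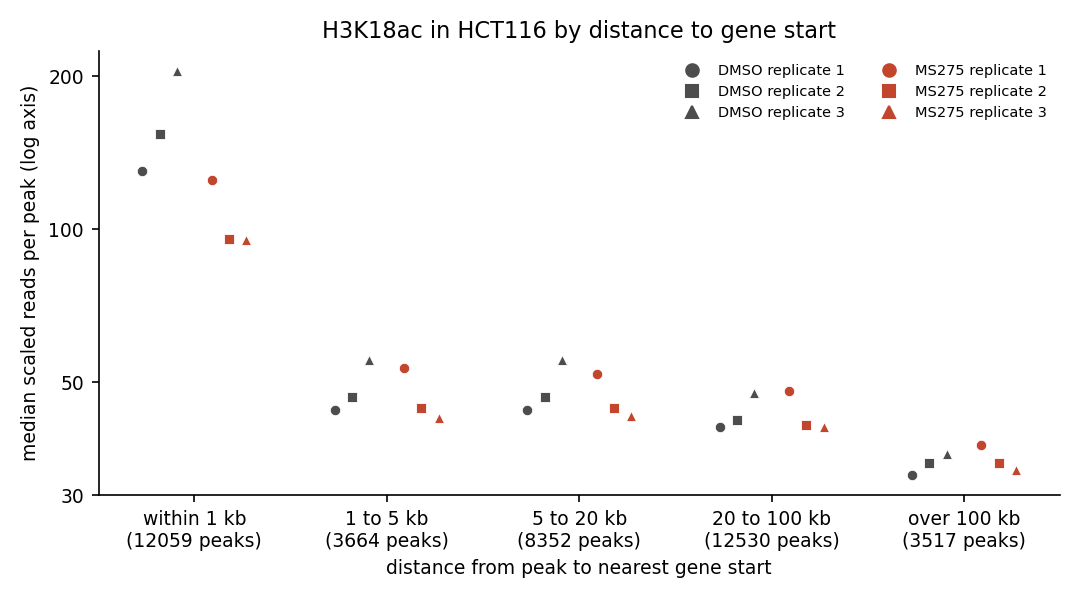
Median scaled H3K18ac reads per peak (log axis) in each of the 6 libraries, by the distance from the peak to the nearest gene start. Within 1 kb of a start the MS275 libraries lie at 95.4 to 124.6 scaled reads, below the DMSO libraries at 130.2 to 204.7. In the other classes the treatments overlap with the deposited scaling.

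Peaks with a higher starting level had larger falls, at gene starts and elsewhere. Levels were taken from the H3K18cr libraries of the DMSO cells, and peaks were split into quartiles by scaled reads per kb. These libraries share no reads with the H3K18ac libraries, but 1 input for each treatment is labelled for both marks. Whether both marks came from the same chromatin is not given in the sources used here. The median H3K18ac change from the lowest to the highest quartile was 0.05, -0.02, -0.24 and -0.71 over all peaks (log2). In the highest quartile 55.9% of the peaks fell, and in the lowest 0.399%. At gene starts the medians of the quartiles were -0.14, -0.48, -0.70 and -0.92, and 85.9% of the peaks in the highest quartile of the starts fell. Among the other peaks they were 0.06, 0.02, -0.07 and -0.36, and 16.8% of the highest quartile fell. Between the highest and lowest quartiles, the distance in level within a library was 2.79 ± 0.28 in DMSO and 2.00 ± 0.17 with MS275 (log2, mean ± SD, n = 3), without overlap (difference -0.79, p = 0.1, exact permutation test). When 1 DMSO library of H3K18ac gave the level and the libraries of the other numbers the change, the difference between the highest and lowest quartiles was -0.75 on average and -0.61 to -0.91 by the library that set the level.

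Within quartiles of starting level, the difference in change between start peaks and other peaks was smaller than without the split. The start peaks changed relative to the other peaks by -0.07, -0.04, -0.14 and -0.12 from the lowest to the highest quartile (log2), against -0.59 without the split. In the 2 lower quartiles the groups overlapped (p = 0.4 for each, exact permutation test), and in the 2 upper ones they did not (p = 0.1). The highest quartile held 7585 start peaks and 2446 other peaks, and the lowest 515 and 9518. After subtraction of the input, the change of the summed signal in the highest quartile was -1.11 at starts and -0.86 at other peaks, against -1.02 and -0.47 without the split.

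**Figure D2:**
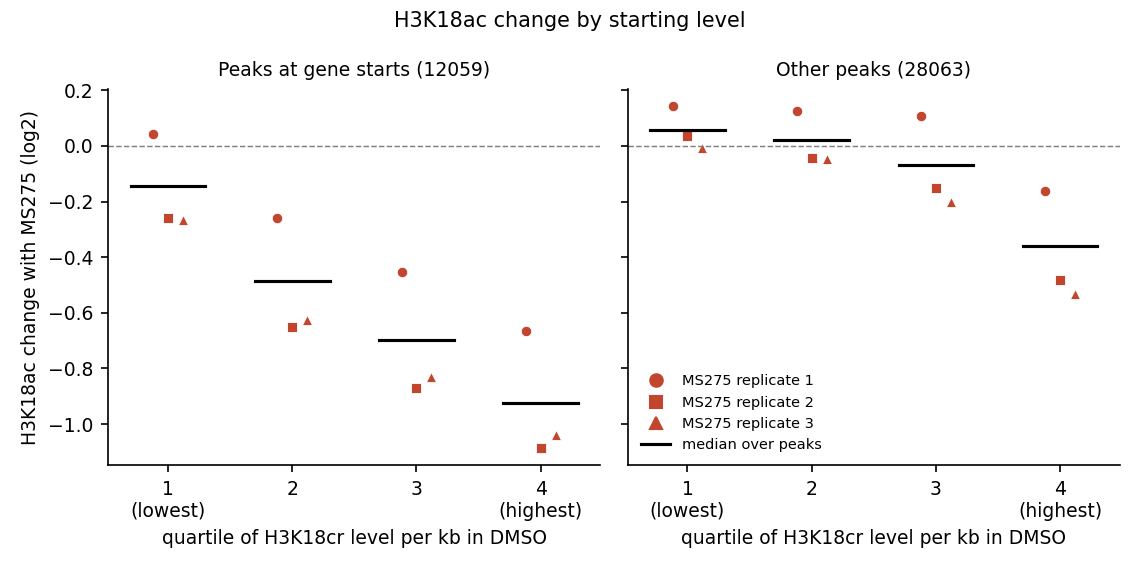
Change of H3K18ac in each MS275 library from the mean of the DMSO libraries (log2 of library medians, symbols) and median change over peaks (lines), by quartile of the H3K18cr level per kb in DMSO, at gene starts (left) and in other peaks (right). The line falls from -0.14 to -0.92 at starts and from 0.06 to -0.36 in other peaks.

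Width and CpG content went with the change in part. The narrowest quartile of the peaks, with a median width of 750 bp, had a median change of 0.01, and the widest, with a median of 4650 bp, -0.36 (log2). Within libraries the widest quartile stood above the narrowest by 0.49 less with MS275 (p = 0.1, exact permutation test, no overlap). The difference was -0.34 within start peaks and -0.25 within other peaks, where the groups overlapped (p = 0.1 and p = 0.2, exact permutation test). In quartiles of CpG dinucleotides per 100 bases, the medians were -0.01, -0.05, -0.24 and -0.63 over all peaks. Start peaks of the CpG-poorest quartile of starts had a median of -0.31, and those of the 3 others -0.69, -0.71 and -0.62. Of these start peaks, 21.1%, 52.0%, 54.1% and 45.5% fell. Within peaks of like width, start peaks changed relative to other peaks by -0.24, -0.43, -0.55 and -0.44 from the narrowest to the widest quartile, and the groups overlapped in the narrowest (p = 0.2, exact permutation test). Within quartiles of CpG content they did so by -0.06, -0.11, -0.48 and -0.28, and the groups overlapped in the 2 CpG-poorer quartiles.

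Among start peaks with a mean of at least 50 scaled reads and no overlap between groups, the 6 largest falls lay at genes of varied function. MAGT1 encodes a magnesium transporter and subunit of the oligosaccharyltransferase. Its peak (chrX:77895601-77896650 of GRCh38, starting 8 bp from the listed start of the gene) had 65.7, 111.6 and 109.4 scaled reads in the DMSO libraries and 35.1, 21.5 and 28.3 with MS275. The change was -1.75 ± 0.25 (log2, SE, adjusted p = 2.08e-07 in limma), and the groups did not overlap. CETN2, which encodes a centrin of the centrosome and of nucleotide excision repair, shares a peak with the start of NSDHL, a gene of cholesterol synthesis (chrX:152830051-152831850). This peak had 81.5, 110.1 and 145.5 scaled reads with DMSO and 39.0, 29.7 and 38.8 with MS275, a change of -1.62 ± 0.25 (adjusted p = 8.0e-07). The peak at NFX1, a zinc finger regulator of transcription, went from 330.5, 396.7 and 549.7 scaled reads to 145.4, 130.3 and 124.7 (-1.64 ± 0.25, adjusted p = 8.7e-07, chr9:33289501-33291900). At ATAD3A, which encodes an ATPase of the mitochondrial membrane, the values were 208.3, 263.9 and 357.9 with DMSO and 122.0, 75.9 and 76.5 with MS275 (-1.60 ± 0.25, adjusted p = 2.19e-06, chr1:1510951-1512300). Every MS275 library lay below every DMSO library at these peaks. The other peaks among these 6 covered the starts of PRAP1 and ZNF511 (-1.69) and of CTD-2083E4.6 and PDCD6 (-1.62). Since these peaks were picked for their size of change, their values are a description.

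Rises at gene starts were few with the deposited scaling, at 7 of 12059 start peaks, while with TMM scaling 227 rose (1.88%). Of the start peaks that rose as deposited, those of LINC01516 and WNT7A alone had a mean of at least 50 scaled reads and no overlap between groups. WNT7A encodes a secreted Wnt ligand, and its peak (chr3:13878001-13880850) had 49.8, 49.8 and 41.2 scaled reads with DMSO and 106.5, 70.9 and 69.2 with MS275. The change was 0.78 ± 0.25 (log2, adjusted p = 0.0143 in limma). At the long non-coding RNA LINC01516 (chr10:25112551-25114950) the values were 55.5, 48.3 and 57.9 with DMSO and 98.7, 92.4 and 88.0 with MS275, a change of 0.79 ± 0.25 (adjusted p = 0.0134). Both peaks started low, at 16.5 and 22.4 scaled reads per kb in DMSO for WNT7A and LINC01516, whereas the median start peak had 57.8. With DMSO they lay near the level of the input, at 40.4 scaled reads for WNT7A and 45.6 for LINC01516.

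The promoters are shown of MAGT1 and CETN2, from the 6 falls above (a stretch of the ZNF511 promoter is given further on, and the RefSeq window of ATAD3A lies almost wholly outside its peak), of MCM7, the replication gene described below, and of WNT7A and LINC01516, which rose. Each runs from 250 bases before to 50 bases after the RefSeq start (GRCh38.p14), 5′ to 3′ on the strand of the gene: chrX:77895386-77895685 on the minus strand, chrX:152830708-152831007 minus, chr7:100101348-100101647 minus, chr3:13880022-13880321 minus and chr10:25112808-25113107 plus. Capitals mark, on either strand, matches to CCAAT (the box bound by NF-Y), to GGGCGG (the GC box bound by SP1) or to CACGTG (the E-box), and matches may overlap.
MAGT1: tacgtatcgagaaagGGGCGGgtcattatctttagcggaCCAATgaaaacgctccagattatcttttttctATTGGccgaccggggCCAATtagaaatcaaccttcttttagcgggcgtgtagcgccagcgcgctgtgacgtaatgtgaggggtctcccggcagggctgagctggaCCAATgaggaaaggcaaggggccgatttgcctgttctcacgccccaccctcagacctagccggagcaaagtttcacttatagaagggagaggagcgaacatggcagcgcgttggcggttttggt
CETN2: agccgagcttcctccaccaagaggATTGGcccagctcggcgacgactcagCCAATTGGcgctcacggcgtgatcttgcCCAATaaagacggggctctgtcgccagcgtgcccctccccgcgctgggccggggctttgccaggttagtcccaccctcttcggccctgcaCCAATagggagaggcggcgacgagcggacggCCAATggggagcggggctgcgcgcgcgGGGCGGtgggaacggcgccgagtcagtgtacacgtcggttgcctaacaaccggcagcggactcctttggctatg
MCM7: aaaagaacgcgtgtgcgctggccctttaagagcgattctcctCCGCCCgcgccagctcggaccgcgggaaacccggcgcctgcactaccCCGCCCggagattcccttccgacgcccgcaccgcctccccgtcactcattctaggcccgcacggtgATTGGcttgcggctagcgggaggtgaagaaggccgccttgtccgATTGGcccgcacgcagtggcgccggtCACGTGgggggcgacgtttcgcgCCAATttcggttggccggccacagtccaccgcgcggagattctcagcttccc
WNT7A: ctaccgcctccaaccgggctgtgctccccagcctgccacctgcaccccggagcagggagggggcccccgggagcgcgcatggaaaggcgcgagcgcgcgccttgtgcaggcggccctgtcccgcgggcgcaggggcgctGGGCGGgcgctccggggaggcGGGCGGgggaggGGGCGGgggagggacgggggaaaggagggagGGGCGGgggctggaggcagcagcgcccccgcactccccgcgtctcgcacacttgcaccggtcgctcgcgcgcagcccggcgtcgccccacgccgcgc
LINC01516: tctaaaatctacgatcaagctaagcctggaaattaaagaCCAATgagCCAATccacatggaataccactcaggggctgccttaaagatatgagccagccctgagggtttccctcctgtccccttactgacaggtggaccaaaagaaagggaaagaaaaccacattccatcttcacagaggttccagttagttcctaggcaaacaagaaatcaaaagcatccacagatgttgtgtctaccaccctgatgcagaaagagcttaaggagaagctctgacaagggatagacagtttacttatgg
The CETN2 and MCM7 promoters lie inside their peaks, as do those of WNT7A and LINC01516, whereas the MAGT1 window lies only in part inside its peak. MAGT1, CETN2 and MCM7, which fell, have both CCAAT and GC boxes in their windows. Of the rises, LINC01516 has CCAAT boxes and no GC box, and WNT7A has GC boxes and no CCAAT box. LINC01516 has 1 CpG in its window and WNT7A 40, so the letters of the 2 rises differ in this respect.

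Over all genes with a start peak, the sequence of the 6 searched that went most with the change was TGACGTCA, the palindromic cAMP response element to which CREB and ATF proteins can bind. A RefSeq promoter was found for 9318 of the 15568 genes with a tested start peak. TGACGTCA was in 5.10% of the 4788 promoters whose start peak fell and in 1.41% of the 4525 whose peak was not called, against 1.98% of all 27305 promoters of the table. The start peaks of the 308 genes with it had a median change of -0.92 and 79.2% of them fell, against -0.67 and 50.4% of the 9010 genes without it. Within libraries, the peaks with the element stood above those without by 0.43, 0.51 and 0.47 in DMSO and by 0.22, 0.26 and 0.24 with MS275 (log2), without overlap (difference -0.23, p = 0.1, exact permutation test). In the highest quartile of H3K18cr level the difference was -0.20 (269 genes with the element, p = 0.1, exact permutation test), and the genes with it had a higher level in DMSO, at 67.9 against 57.7 scaled H3K18cr reads per kb. The other motifs searched on both strands gave differences of -0.09 for CACGTG and -0.04 for CCAAT. The difference was -0.02 for TGAGTCA (the AP-1 site), 0.01 for GGGCGG and 0.01 for the TATA box, searched as TATAAA. The CCAAT box was in 38.8% of the promoters of fallen peaks and 33.7% of those not called, the GC box in 72.6% and 70.9%, the E-box in 11.8% and 8.86%, the TATA box in 4.87% and 5.44%, and the AP-1 site in 2.92% and 3.54%. Among all promoters of the table these shares were 35.7%, 44.6%, 7.43%, 12% and 4.92%.

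The stretches around TGACGTCA (in capitals, with 22 bases on each side) are shown for the 4 genes with the element whose start peaks fell most, read on the strand of the gene from RefSeq (GRCh38.p14): chr10:133308856-133308907 plus, chr14:20343599-20343650 plus, chr10:97319204-97319255 plus and chr6:135497747-135497798 minus.
ZNF511: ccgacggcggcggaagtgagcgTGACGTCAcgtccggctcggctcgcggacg
PARP2: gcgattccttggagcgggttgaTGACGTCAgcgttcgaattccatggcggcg
FRAT1: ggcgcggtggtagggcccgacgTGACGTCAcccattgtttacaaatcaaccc
AHI1: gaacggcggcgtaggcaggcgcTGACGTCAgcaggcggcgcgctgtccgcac
The element began 36, 14, 45 and 36 bases before the RefSeq start in ZNF511, PARP2, FRAT1 and AHI1. ZNF511 encodes a zinc finger protein, PARP2 a poly(ADP-ribose) polymerase of DNA repair, FRAT1 an activator of Wnt signalling and AHI1 a protein of the primary cilium. The FRAT1 peak had 184.5, 245.8 and 230.4 scaled reads with DMSO and 87.0, 85.8 and 81.7 with MS275. The AHI1 peak had 341.9, 535.4 and 535.5 with DMSO and 196.0, 160.0 and 184.4 with MS275. At both genes the 3 MS275 libraries were below the lowest DMSO library, with changes of -1.37 and -1.36 (log2). These 4 genes were chosen after their values were seen.

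Start peaks of the DNA replication genes fell together. Among all 15568 genes with a tested start peak, 47.6% had a start peak that fell, and the median change was -0.64 (log2). Of the 23 replication genes tested, 22 fell, with a median of -1.08 and changes between -1.39 and -0.46. RFC5 and GINS3 had no peak within 1 kb of the listed start. The largest fall was at MCM7, a subunit of the replicative helicase, whose peak (chr7:100099501-100103250) it shares with the start of AP4M1. It had 474.3, 595.7 and 802.0 scaled reads with DMSO and 280.4, 193.0 and 234.7 with MS275, a change of -1.39 ± 0.25 (adjusted p = 2.11e-05 in limma). The groups did not overlap. The other helicase subunits MCM2, MCM3, MCM4, MCM5 and MCM6 fell too, with changes of -1.16, -0.91, -1.11, -1.10 and -1.19 (log2). CDC6, which loads the helicase, also fell (-1.29), as did POLE, the leading-strand polymerase (-1.27), and PCNA, the sliding clamp (-0.82). GINS2 alone was not called (-0.46, adjusted p = 0.232). Of the 23 genes, 9 fell without MS275 replicate 2 and 14 without MS275 replicate 3, while 20 fell with libraries scaled to their reads in peaks. Over all 40122 peaks, 1421, 1871 and 4215 fell in these settings, against 6534 in the main test. The share of all genes was not computed under these settings. Counts of list members in other settings, here and below, thus have no such share beside them.

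The immediate early genes, whose products form the AP-1 transcription factor or respond quickly to growth signals, had lower start peaks with 1 exception. Of the 10 genes, 9 fell (90%), with a list median of -1.06, against 47.6% and -0.64 over all genes with a start peak. The FOS peak (chr14:75273151-75280800) had 794.7, 1172 and 1198 scaled reads with DMSO and 451.8, 428.9 and 379.3 with MS275, a change of -1.31 ± 0.24 (log2, adjusted p = 3.01e-05 in limma). No MS275 library reached the range of the DMSO libraries. The others that fell were JUND (-1.27), JUN (-1.23), FOSB (-1.16), EGR1 (-1.08), IER2 (-1.03), FOSL1 (-1.01), FOSL2 (-0.97) and JUNB (-0.87). ATF3, a stress-induced member, stood at 114.3, 149.3 and 159.6 scaled reads with DMSO and at 164.9, 151.8 and 119.5 with MS275 (0.04, adjusted p = 0.95), so the groups overlapped, but it rose by 0.49 with libraries scaled to their reads in peaks. Of the 10 genes, 6 fell without MS275 replicate 2 or 3. These genes started at 106.3 to 188.9 scaled reads per kb in DMSO, apart from ATF3 at 33.6. In RNA, with the replicate number as a block in edgeR, FOSL2, JUN, EGR1 and IER2 rose by 0.49, 0.56, 0.44 and 0.34 on the log2 scale while their start peaks fell, and FOSL1 fell (-0.41) (adjusted p from 0.0053 to 0.050).

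Start peaks of ribosomal protein genes and of genes that act on acetylation are given beside the 47.6% of all genes whose start peak fell and their median of -0.64. Of the 74 cytosolic ribosomal protein genes tested, 63 fell (85.1%), with a median of -0.90, from -1.37 at RPS13 to -0.39 at RPL38. RPL10, RPL22, RPL36 and RPL4 had no peak at the listed start. Of the 9 acetyltransferases 7 fell (77.8%, median -0.77), among them EP300, the gene of p300 (-1.13), and CREBBP, the gene of CBP (-0.77). KAT5, the catalytic subunit of the NuA4 complex, fell most (-1.15), and KAT2B was not called (-0.08, adjusted p = 0.909 in limma). Of the 22 corepressor genes 15 fell (68.2%, median -0.78), from SIN3A, the scaffold of the Sin3 complex, at -1.21 to SAP30, another Sin3 subunit, which was not called at -0.13. Of the 13 genes of acetyl-lysine or acyl-lysine readers 8 fell (61.5%, median -0.91), among them BRD9 (-1.30) and BRD2 (-1.07). MLLT3, a YEATS domain reader, was not called (-0.09). Without MS275 replicate 2, the counts were 16 ribosomal protein genes, 3 acetyltransferases, 3 corepressors and 4 readers, and without MS275 replicate 3 they were 24, 4, 4 and 5. Without DMSO replicate 2 the ribosomal count was 38 and the corepressor count 5, and without DMSO replicate 3 they were 43 and 10, with 4 acetyltransferases in each case.

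The start peaks of HDAC1, HDAC3 and HDAC8, genes of class I deacetylases, did not pass the test. The HDAC1 peak (chr1:32289901-32293200) had 125.7, 162.9 and 221.4 scaled reads with DMSO and 141.5, 122.1 and 104.8 with MS275. The change was -0.44 ± 0.25 (log2, adjusted p = 0.265 in limma) and the groups overlapped. The HDAC3 peak (chr5:141635251-141639000), shared with the start of RELL2, had 236.6, 178.0 and 251.0 with DMSO and 190.9, 138.6 and 129.9 with MS275, also with overlap (-0.54 ± 0.25, adjusted p = 0.140). HDAC8 stood at -0.23 (adjusted p = 0.75). HDAC2 was not tested, since the nearest peak to its listed start was 12208 bp away.

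The shares of CDK inhibitors, p53 targets and mitosis genes that fell lay near the 47.6% of all genes with a start peak. Of the 20 CDK inhibitors and p53 targets 12 fell (60.0%), with a list median of -0.73 against -0.64 over all genes (log2). CDKN1A encodes the CDK inhibitor p21, whose RNA is a known target of deacetylase inhibitors. Its peak (chr6:36675451-36681300) had 288.7, 392.1 and 468.6 scaled reads with DMSO and 289.5, 239.2 and 234.7 with MS275. The lowest DMSO library and the highest MS275 library were nearly alike, and the change was not called (-0.57 ± 0.25, adjusted p = 0.111 in limma). With TMM scaling it passed at -0.32 (adjusted p = 0.0496). BBC3, the proapoptotic gene of PUMA, had 748.2, 849.1 and 1079 scaled reads with DMSO and 575.2, 417.4 and 444.3 with MS275, without overlap (-0.89 ± 0.24, adjusted p = 0.00388, chr19:47225101-47234250). TNFRSF10B, a death receptor gene, fell most (-1.24), and ZMAT3 stood at -0.08 (adjusted p = 0.906). The ChIP with qPCR of the study had primers at CDKN1A, BBC3 and CLDN7 and found more H3K18cr with MS275 at different loci. Its H3K18ac ChIP-seq was reported as a relative decrease over gene starts. Of the 18 genes of mitosis 9 fell (50%), with a median of -0.66, from CDC20 at -1.04 to PLK1, not called, at -0.29. Without MS275 replicate 2 or 3, 2 of the p53 list and 0 of the mitosis list fell, and without DMSO replicate 2 or 3, 5 of the p53 list did. The mitosis count was then 1 and 3, and it was 14 without DMSO replicate 1. With libraries scaled to their reads in peaks 7 of the p53 list and 4 of the mitosis list fell.

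**Figure D3:**
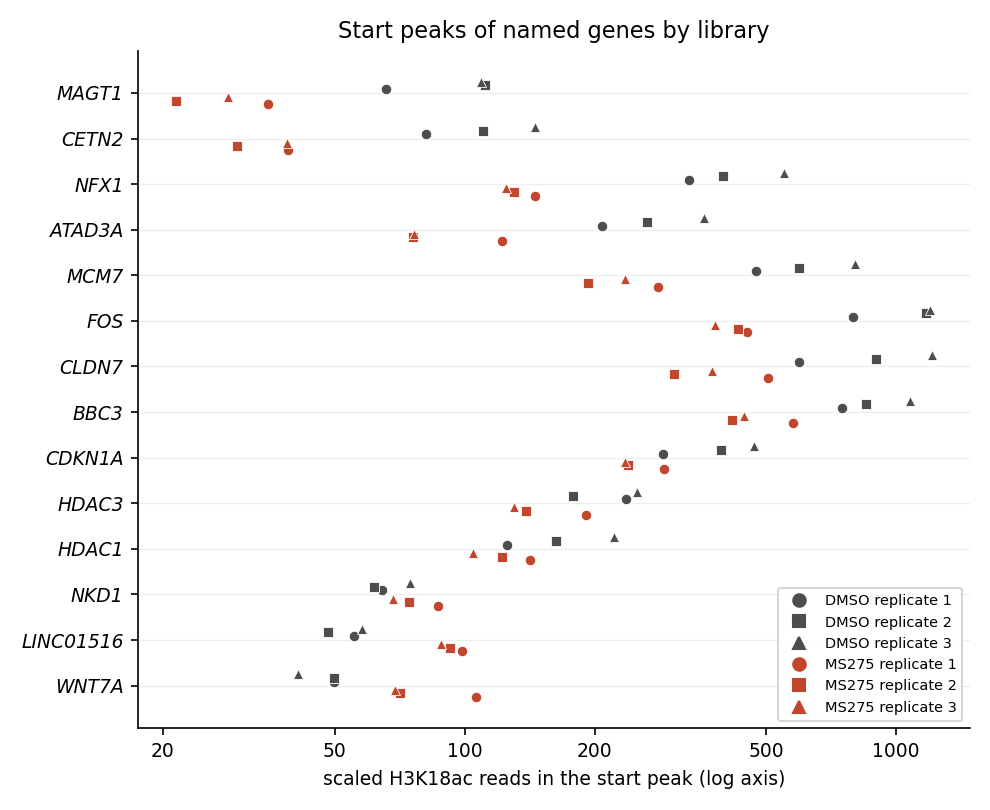
Scaled H3K18ac reads in the start peaks of 14 named genes (log axis) in each library of DMSO (grey) and MS275 (red). MS275 lies to the left of DMSO without overlap from MAGT1 to BBC3, overlaps it at CDKN1A, HDAC3, HDAC1 and NKD1, and lies to the right at LINC01516 and WNT7A.

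The start peaks of Wnt targets and of genes of differentiated cells are given beside the 47.6% of all genes whose start peak fell. HCT116 cells carry an activating mutation of beta-catenin, the effector of Wnt signalling. Of the 10 Wnt targets tested 2 fell, namely ZNRF3 (-0.89) and CCND1 (-0.79, log2), and the list median was -0.25. NKD1, a feedback inhibitor of the pathway, had 64.5, 61.8 and 74.7 scaled reads with DMSO and 87.0, 74.2 and 68.1 with MS275 (0.19 ± 0.25, adjusted p = 0.731 in limma), with overlap. AXIN2, the most used Wnt reporter gene, stood at -0.05. With TMM scaling the list median was -0.00 and RNF43 and NOTUM rose, by 0.32 and 0.34, and with libraries scaled to their reads in peaks 4 of the 10 rose. In these settings 1811 and 6933 of all 40122 peaks rose. In edgeR with TMM and in DESeq2 1 of the 10 rose. Without MS275 replicate 2 or 3, or without DMSO replicate 2, no Wnt target (0) was called. LGR5, ASCL2 and LEF1 had no peak at the listed start. Of the 11 epithelial junction and keratin genes tested 3 fell, namely CLDN7, OCLN and CDX2, and KRT8 and KRT18 share 1 peak. CLDN7, a claudin of tight junctions, had 595.4, 895.9 and 1210 scaled reads with DMSO and 505.1, 305.2 and 375.2 with MS275 (-1.16 ± 0.25, adjusted p = 0.000204, chr17:7258501-7265100), without overlap. Of the 6 neuronal genes with a start peak 1 fell (TUBB3, -0.68), and of the 4 metallothionein genes 2 fell. Without MS275 replicate 2 none (0) of the junction, neuronal and metallothionein genes fell, and without DMSO replicate 1 the counts were 7, 2 and 4. None of the lists held a start peak that rose as deposited. The median level of the tested members in DMSO ranged from 44.7 scaled reads per kb in the neuronal genes and 46.0 in the Wnt targets to 140.6 in the immediate early genes, so the differences between lists and those between levels cannot be told apart here.

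**Figure D4:**
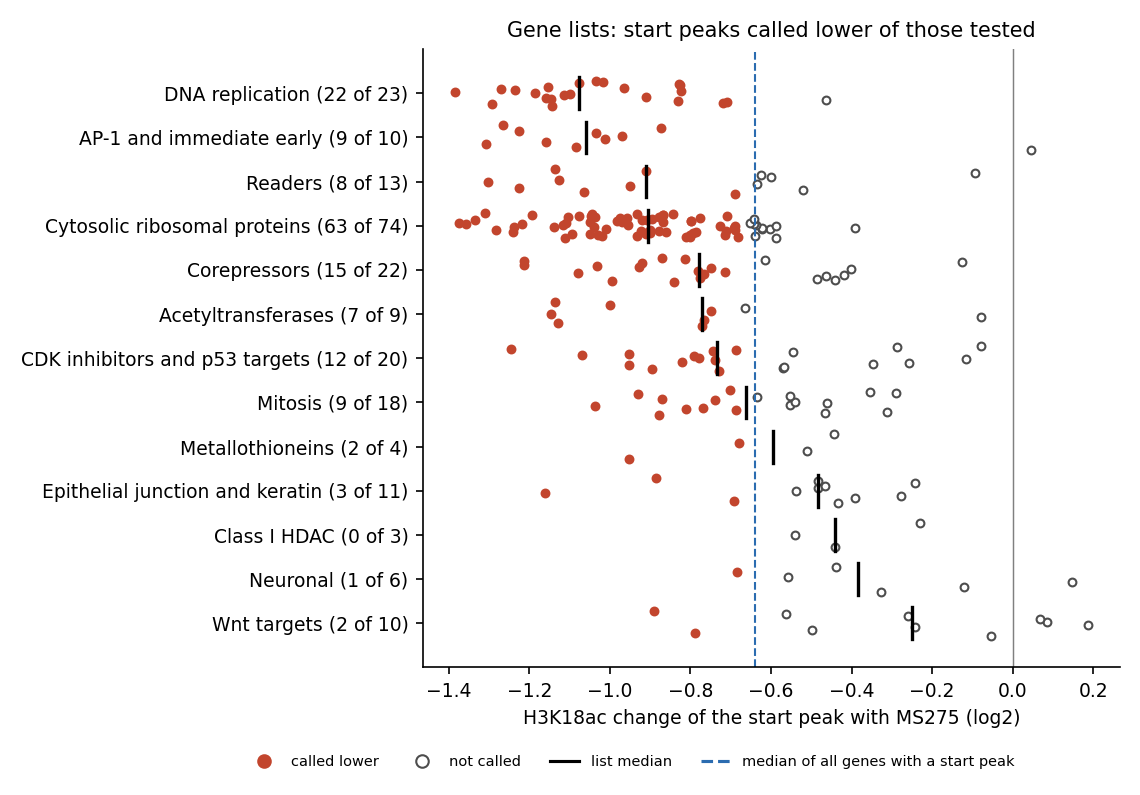
Change of H3K18ac at the start peak with MS275 (log2) for each tested member of 13 gene lists, with called members filled, list medians as black bars and the median of all genes with a start peak (-0.64) as a dashed line. DNA replication genes lie lowest with a median of -1.08 and Wnt targets highest with -0.25.

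The change at the starts was ordered by the RNA of the gene. In quartiles of RNA level in DMSO (CPM per kb of gene span), the median change of the start peak was -0.40, -0.58, -0.70 and -0.79 from the lowest to the highest, and 28.8%, 41.1%, 54.4% and 66.1% of the genes had a start peak that fell. Within libraries the highest quartile stood above the lowest by 0.89 ± 0.07 in DMSO and by 0.55 ± 0.03 with MS275 (log2, mean ± SD, n = 3), without overlap (p = 0.1, exact permutation test). Starting levels differed too, with median start peaks of 104.1, 123.7 and 155.8 scaled reads in the DMSO libraries in the lowest quartile. In the highest they were 186.8, 223.2 and 305.1, so RNA level and starting level cannot be told apart here. The 1294 genes without a count in DMSO had a median of -0.30.

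Start peaks of genes whose RNA rose with MS275 stood closer to their DMSO level than those of genes whose RNA fell. RNA classes came from edgeR with the replicate number as a block, where 1171 genes rose (7.83% of those tested) and 980 fell (6.55%) at an adjusted p under 0.05, while without the block 1 gene was called. Of the 1007 rising genes with a start peak, 23.1% had a start peak that fell and the median change was -0.37 (log2). Of the 906 falling genes it was 72.0% and -0.82, and of the 10298 others 53.3% and -0.70. Within libraries the difference in level between rising and falling genes was -0.79, -0.80 and -0.96 in DMSO and -0.38, -0.36 and -0.38 with MS275, so these classes came closer in each MS275 library (difference 0.47, p = 0.1, exact permutation test). The rising genes also started lower, with a median peak level of 120.0, 141.8 and 176.4 scaled reads in DMSO against 207.2, 246.6 and 342.4 in the falling genes. Of the 166 genes whose RNA rose by more than 2-fold, 3.01% had a start peak that fell, and the median change was -0.06 as deposited and 0.19 with TMM scaling. Their median start peak had 67.3, 71.6 and 83.7 scaled reads with DMSO and 86.3, 66.0 and 67.6 with MS275, with overlap under the deposited scaling. Of all 1007 rising genes, 233 had a start peak that fell and 1 a start peak that rose. Across 12211 genes the changes of RNA and start peak had a Pearson r of 0.304 and a Spearman rho of 0.306, where genes share libraries and are not independent.

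**Figure D5:**
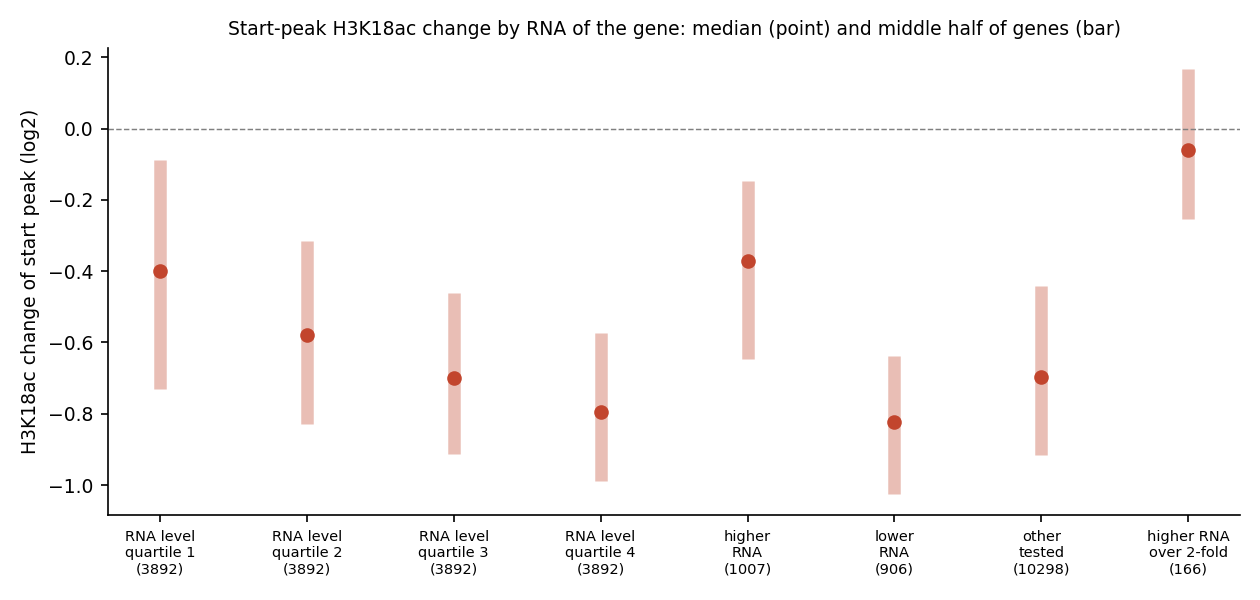
Change of H3K18ac at the start peak with MS275 (log2) by the RNA level of the gene in DMSO and by its RNA change, as the median (point) and the interquartile range of the genes (bar), with the number of genes in brackets. Medians go from -0.40 to -0.79 with rising RNA level, and genes with RNA higher by more than 2-fold lie at -0.06 with the deposited scaling.

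Away from gene starts a smaller share of the peaks was called. With the deposited scaling, 494 of 12530 peaks fell from 20 to 100 kb from a start (3.94%), and beyond 100 kb 66 of 3517 (1.88%). With TMM scaling 1811 peaks rose over all distances, and 227 of these lay at starts. More than 10 kb from any listed start, the largest fall among peaks with no overlap lay in EMC3 (chr3:9986401-9987900, 23216 bp from its listed start), which encodes a subunit of the membrane protein insertion complex. It had 84.9, 116.1 and 155.8 scaled reads with DMSO and 55.8, 24.7 and 37.7 with MS275, a change of -1.63 ± 0.25 (log2, adjusted p = 8.0e-07 in limma). The next lay at the pseudogene GTF2IRD1P1 (chr7:66844051-66846000, -1.51) and on chromosome X outside annotated genes (chrX:3814201-3816750, -1.46). These 3 peaks had 5.07, 5.49 and 7.25 CpG per 100 bases, against a median of 0.988 in the peaks away from starts. The 2 rises that met the same rule lay outside annotated genes at chr10:31744501-31746600 (0.77) and chr4:83782351-83784300 (0.73), and they had 0.905 and 0.462 CpG per 100 bases. At the first of these the values were 35.1, 43.7 and 34.8 scaled reads with DMSO and 77.9, 70.9 and 48.2 with MS275.

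The 3 peaks with the highest H3K18ac level per kb in DMSO fell, but they were chosen by the same DMSO libraries that enter the change, so their values are a description. The highest level per kb among peaks of at least 1 kb lay over ACTG1, the gene of gamma actin, and the start of the transcript RP13-766D20.2 (chr17:81510601-81521250). It had 1837, 2520 and 3590 scaled reads with DMSO and 1450, 1115 and 1013 with MS275 (-1.11 ± 0.23 on the log2 scale, adjusted p = 0.000123 in limma). The next were at YWHAZ, a gene of the 14-3-3 proteins (-1.26), and at MYADM, a gene of a myeloid membrane protein (-1.31). The groups did not overlap at these 3 peaks, where 23.1% of all peaks tested had MS275 below DMSO in all libraries and 3.33% above.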

How the data were processed

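HCT116 libraries were grouped by their labels. For ChIP-seq, the authors trimmed reads with Trim Galore, mapped them with Bowtie2 to GRCh38, removed duplicates and called peaks with MACS in SEQMONK. Whether peaks were called on pooled libraries is not given in the sources used here. The deposited HCT116 table holds the log2 of reads multiplied by 1 factor for each library, with 0.9 reads in place of 0, and 100% of values were whole reads (within 0.1%). RNA was deposited as counts per gene. RNA libraries were made with a directional kit. HiSat2 is named with the mouse genome alone, and the genome and strand setting for HCT116 RNA are not given in the sources used here. Other tables, including the signal and count tables of mouse tissue, were not used here.

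Peaks were tested with limma 3.58.1 (eBayes with trend) on the deposited log2 values, without a block, after the filter on scaled reads, with Benjamini-Hochberg adjustment over all 40122 peaks. Gene starts were those of the deposited RNA table of 35805 genes. Of its names, 20583 were in GENCODE 44 (GRCh38), with a listed start at most 10 kb from that of GENCODE for 96.3%. No peak (0) ran past a chromosome end. RNA (35608533 to 53415604 counts per library) was tested with edgeR 4.0.16 (quasi-likelihood, TMM, filterByExpr), and its replicate numbers were treated as pairs, since libraries with 1 number deviated together from the means of their groups, with correlations of 0.476, 0.328, 0.700 and 0.719. The H3K18ac numbers were not, at -0.207, 0.046 and -0.134. DESeq2 1.42.0 was an alternative for both. Level contrasts were differences of medians within a library, compared between treatments by exact permutation over libraries. Other steps used Python 3.11.15 with numpy, pandas and scipy.

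The peaks named were the start peaks of genes the study names, the 6 largest falls and rises at starts and the 3 largest beyond 10 kb from any start (called, mean of at least 50 scaled reads, no overlap), the 3 highest levels per kb in DMSO, and the lowest and highest member of each list. The members and lists were chosen with earlier results of these data known. Both tests were tested on simulated data. Of 200 peaks changed in simulated data (40122 peaks), limma recovered 19 of 67 at 1.5-fold, 45 of 67 at 2-fold and 64 of 66 at 4-fold. Each peak was drawn on its own around 1 mean, scaled by the library factor, without a shift shared by the peaks of a library. Recovery under shifts like those between these libraries was not tested. In simulated RNA counts (14961 genes), edgeR with the block recovered 48 of 67 genes at 1.5-fold, 41 of 67 at 2-fold and 59 of 66 at 4-fold. Standard errors from limma are the measure of precision. In limma the variance of a peak is drawn towards that of other peaks of like level, and the SE was 0.25 at ZNF511, PARP2, FRAT1 and AHI1 alike. An adjusted p thus does not measure the spread at 1 peak alone.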

Additional observations from a re-analysis of the deposited data

Results flagged for a closer look

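Among the RNA values of 7 genes named above in 2 groups of 4 libraries each (14 groups), 2 groups held 1 library far from the others. CDKN1A stood at 284.0 CPM in MS275 replicate 3 and at 207.5 to 215.9 in the other MS275 libraries. HDAC3 stood at 127.9 CPM in MS275 replicate 3 and at 89.9 to 96.1 in the others. The RNA replicate numbers pair the libraries, and DMSO replicate 3 was also the highest DMSO library, at 222.4 CPM for CDKN1A against 157.0 to 202.0 in the others, and at 110.5 for HDAC3 against 80.3 to 94.8. Chance flags about 1 in 20 such groups.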

How the results depend on the processing

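Of 191 re-computations of 20 contrasts within libraries or of the overall median, 181 kept their direction and moved by less than the spread between replicates. The count of called peaks was 11148 as a share of reads in peaks and 814 with a replicate block, against 6640. With single libraries left out it ranged from 1432 to 9318. With both libraries of a number left out, chosen after seeing the data, it was 11886, 1 and 876 without replicates 1, 2 and 3. The cause was not tested. With TMM scaling the block, also added after seeing the data, gave 7547 calls. Of the gene lists, the block called 9 of 74 ribosomal protein genes, 6 of 23 replication genes, 3 of 10 immediate early genes, 2 of 22 corepressors, 2 of 13 readers, 1 of 20 CDK inhibitors and p53 targets and 0 in the other lists. With TMM scaling and the block these counts were 65, 22, 9, 15, 8 and 12, and 0 Wnt targets rose. Of CDK inhibitors and p53 targets, mitosis genes and acetyltransferases, 12, 9 and 7 fell in the main test. In limma without trend 5, 4 and 4 fell, and in DESeq2 9, 5 and 6. Under the block 11 of the 29 called peaks named above were no longer called, and without replicate 2 in both groups all 29 were not. The difference between treatments of the library medians over all peaks was 0.077 with TMM, 0.27 as a share of reads and -0.40 for peaks of at least 50 scaled reads. With that filter, which drops weak peaks, the contrast of peaks at 1 to 5 kb with starts was 0.41, of width -0.15 over all peaks and -0.14 at starts, of CpG at starts -0.079, of H3K18cr level at starts -0.64 and of RNA level -0.24. RNA classes without the block gave 0.56 for the RNA contrast. RNA calls, 1 in edgeR (987 genes at an unadjusted p under 0.05), were 2151 with the replicate block, 140 in DESeq2, 13 without a filter and 0 to 1 without single libraries. The block changed no call of a contrast, as neither test can pass 0.05 with 3 libraries for each treatment. With the pairing, starts against other peaks had p = 0.25 in an exact sign-flip test, the smallest it can give. Leaving out single libraries, the contrast of starts and other peaks ranged from -0.67 to -0.49 and that of H3K18cr level from -0.92 to -0.64.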

Other observations

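On chromosome X, chosen after the values of all chromosomes were seen, the 443 tested peaks away from gene starts had a median change of -0.52 (log2) and 23.7% of them fell, against -0.07 and 4.44% in the 27620 such peaks of the autosomes. Within libraries they stood below the autosomal peaks by 0.96, 0.86 and 0.64 in DMSO and by 1.16, 1.24 and 1.29 with MS275, without overlap (difference -0.41, exact permutation test, p = 0.1, the smallest possible). At gene starts the median was -0.85 for the 389 peaks on X and -0.59 for the 11670 others. The X peaks away from starts were narrower, with a median of 750 bp against 1650 bp, had a lower input, at 9.93 against 16.5 scaled reads per kb, and a higher H3K18ac level in DMSO, at 35.9 against 29.6 scaled reads per kb. Within quartiles of H3K18cr level the differences between X and autosomes were -0.55, -0.28, -0.22 and -0.32 from the lowest to the highest. The lowest quartile held 39 X peaks and the highest 41. In the lowest, the median H3K18ac level in DMSO was 34.8 scaled reads per kb on X, with an input of 8.69. The autosomal peaks there had 27.0, with an input of 15.6. The quartiles made no allowance for input, so they did not match X and autosomal peaks in level above it. After subtraction of the input, the change of the summed signal was -0.90 on X and -0.47 over all peaks away from starts, against -0.65 and -0.26 before it, so the gap was as large after subtraction. The part of width in this was not tested. Among the autosomes, chromosome 19 had the lowest such change, at -0.77 after subtraction of the input and -0.45 before it, and the others ran from -0.33 to -0.17 before it.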
